A study of Mus musculus with 3 samples.

Results

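The nuclear genes of the respiratory chain were followed in single cells of mouse dorsal skin, from non-lesional skin and from wound beds. Genes were taken when their symbol began with Ndufa, Ndufb, Ndufc, Ndufs, Ndufv, Uqcr, Cox4i, Cox5, Cox6, Cox7, Cox8 or Atp5, or was Sdha, Sdhb, Sdhc or Sdhd. The assembly factors named Ndufaf and the complex IV isoform Ndufa4l2 were left out. At least 10 unique molecular identifiers (UMIs, the counted RNA molecules) were required over all 3 libraries. Of 84 candidates, 82 passed, among 27998 genes in all: 37 of complex I, 4 of complex II, 8 of complex III, 16 of complex IV and 17 of complex V. The candidates under the minimum were Cox7b2 and Cox8c, the isoforms known from testis, with 5 and 2 UMIs. The rule uses names and total UMIs, not a difference between groups.

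The mice were male C57BL/6 animals aged 7 to 9 weeks, wounded in telogen, the resting phase of the hair cycle. Full-thickness wounds of 1.0 cm by 0.5 cm were made, and 1 library each came from non-lesional skin, from the wound bed on day 2 and from the wound bed on day 7. All cells had passed through digestion with collagenase D and DNase1. The labels do not say how many animals each library pools, and there were no replicates. Differences between libraries are therefore values without a test, and the 95% intervals cover counting error only.

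The respiratory chain sits in the inner membrane of the mitochondrion. Complexes I and II pass electrons from NADH and succinate to ubiquinone, complex III passes them to cytochrome c and complex IV to oxygen, and complex V, the ATP synthase, uses the proton gradient they build. Most subunits are encoded in the nucleus and imported, and a few core subunits of complexes I, III, IV and V are encoded in mitochondrial DNA. In skin, wound fibroblasts divide, migrate and secrete matrix while phagocytes enter, and these cells are known to differ in how far they rely on glycolysis or on respiration.

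The libraries held 10857, 8707 and 7317 barcodes and 123088680, 138046172 and 102345327 UMIs, in the order non-lesional, day 2 and day 7. After filtering, 9354, 7339 and 4714 cells were kept, at medians of 9458.5, 7506 and 10802.5 UMIs. Pairs of libraries shared 14 to 24 barcodes. Cells were clustered, and clusters that met a marker rule took a name ending in "-like". Fibroblast-like cells numbered 6408, 4065 and 2296, with median depths of 9306.5, 26130 and 26364.5 UMIs. Their 10 fibroblast markers, collagens and Pdgfra among them, were all detected in each library, but summed to 151182 CPM (UMIs of a gene per 1000000 UMIs of the class) in non-lesional skin, 32903 at day 2 and 81346 at day 7. Neither of the main day 2 clusters, led by Saa3 and Prg4 and by Cxcl5 and Ptx3, had a fibroblast marker among its top 10 genes. The summed level of the 9 pericyte or smooth muscle markers in fibroblast-like cells was 86.9, 105 and 2258 CPM. The part of these marker levels in the values below was not tested.

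The stretches just before RefSeq start sites are shown for 4 members picked by hand. Of these, 3 were higher in wound fibroblast-like cells and Cox7a2l was lower. RefSeq (GRCm38.p6) gave such windows of 250 bases for 69 of the 82 members. Each is written 5′ to 3′ on the strand of the gene and ends at the base before the start. Capitals mark exact matches, on either strand, to 1 of 4 motifs of factors known to regulate these genes.
Uqcr11: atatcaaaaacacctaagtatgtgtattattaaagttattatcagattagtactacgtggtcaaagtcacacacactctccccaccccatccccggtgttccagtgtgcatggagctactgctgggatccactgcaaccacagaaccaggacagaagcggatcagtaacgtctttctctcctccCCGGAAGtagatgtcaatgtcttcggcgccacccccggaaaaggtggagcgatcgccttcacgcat
Cox6a1: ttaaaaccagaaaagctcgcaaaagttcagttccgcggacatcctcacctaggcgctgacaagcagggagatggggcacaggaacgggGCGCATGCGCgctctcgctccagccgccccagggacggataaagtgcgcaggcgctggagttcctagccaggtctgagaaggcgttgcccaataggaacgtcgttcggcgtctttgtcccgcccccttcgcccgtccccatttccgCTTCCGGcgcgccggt
Cox5a: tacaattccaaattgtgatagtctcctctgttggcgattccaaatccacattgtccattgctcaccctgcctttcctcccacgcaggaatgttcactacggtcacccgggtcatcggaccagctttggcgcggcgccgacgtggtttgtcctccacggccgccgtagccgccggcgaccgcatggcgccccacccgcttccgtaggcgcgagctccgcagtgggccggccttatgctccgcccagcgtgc
Cox7a2l: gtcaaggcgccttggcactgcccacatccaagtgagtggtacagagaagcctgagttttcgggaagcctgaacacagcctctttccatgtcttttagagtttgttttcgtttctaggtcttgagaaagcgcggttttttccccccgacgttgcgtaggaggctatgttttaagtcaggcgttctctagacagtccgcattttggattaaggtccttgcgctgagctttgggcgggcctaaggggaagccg
The Uqcr11 window lies at chr10:80406822-80407071 on the minus strand and holds the GABP motif CCGGAAG at -66. That of Cox6a1, at chr5:115348959-115349208 on the minus strand, holds the NRF1 motif (the first run of capitals) at -162 and the GABP motif, in reverse, at -16. Positions count back from the start and give the first base of the match. The windows of Cox5a (chr9:57520982-57521231, plus strand) and Cox7a2l (chr17:83514334-83514583, minus strand) held none of the 4. The Cox7a2l window precedes a RefSeq start that lies inside the GENCODE M21 span of the gene (chr17:83501918-83517330). The stretch before the 5′ end of that span was not searched. Over the 69 members, the NRF1 motif stood in 4 (5.80%), against 0.877% of 27025 genes with a window. The GABP motif stood in 12 (17.4%, against 7.83%), the ERR motif TCAAGGTCA in 1, Atp5g3 (1.45%, against 0.422%), and the YY1 motif AAGATGGC in 2 (2.90%, against 1.83%). No matches overlapped, and the median number of CG pairs was 14 against 6 over all genes. These are matches of letters, not measured binding. The 4 printed members were picked, so their contrast does not stand for the 69. In fibroblast-like cells, members with the GABP motif had a median log2 fold of 0.82 at day 2, against 0.77 for those without. At day 7 these medians were 0.79 and 0.78. For the NRF1 motif, in 4 members, they were 1.30 against 0.77 at day 2 and 1.04 against 0.76 at day 7.

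In fibroblast-like cells the summed level of the 82 members was higher in the wound than in non-lesional skin. They gave 1.11% of all UMIs of the class in non-lesional skin, with an interval from 1.108 to 1.113%. The day 2 share was 1.97% (1.965 to 1.971) and the day 7 share 1.89% (1.888 to 1.895), which is 1.77 times the non-lesional level at day 2 and 1.70 times at day 7. Of the 82 members, 74 stood above 0 on the log2 scale at day 2 and 79 at day 7, or 68 at day 7 with TMM scaling. At day 2, 26 members were at least 2-fold higher (31.7%) and none of the 82 lower by that much, where 11.1% of all 16113 genes with at least 10 UMIs in the pair were higher and 6.30% lower. At day 7 the counts were 23 (28.0%) and 0, against 7.92% and 4.24% of 15945 genes. Genes at higher levels passed 2-fold more often: among genes at 50 CPM or more in either library, 25.6% were 2-fold higher at day 2 and 17.6% at day 7. The members at that level had 26 of 72 (36.1%) and 23 of 73 (31.5%). Log2 folds, which carry a pseudocount of 5 CPM, had a median of 0.78 over members at day 2 against 0.05 over all genes, and of 0.77 against 0.13 at day 7. At 50 CPM or more the gap was narrower, with medians of 0.89 against 0.36 at day 2 and 0.80 against 0.33 at day 7. Both comparisons use the same non-lesional library, so their likeness is not independent evidence. 22 members passed 2-fold at both days.

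**Figure D1:**
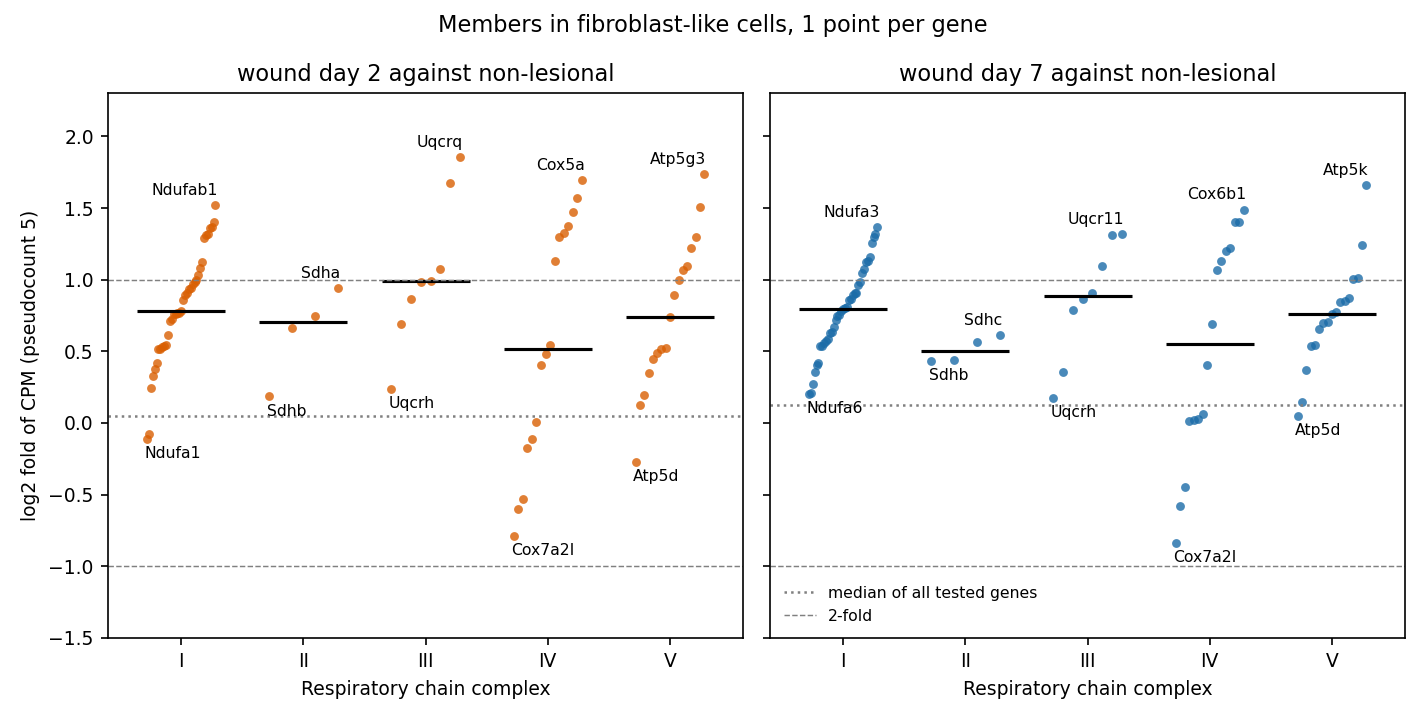
Log2 fold of CPM (pseudocount 5, vertical axis) of each of the 82 members in fibroblast-like cells, by complex, for wound day 2 (left) and wound day 7 (right) against non-lesional skin. Each point is 1 gene, the black bar is the median of a complex, the dotted line the median of all tested genes, and the dashed lines mark 2-fold; most points lie above 0, and complex IV has the widest spread, from Cox7a2l at -0.79 to Cox5a at 1.70 on day 2.

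All 5 complexes were higher in sum, with complex II at the smallest ratio. At day 2 the summed UMIs stood at 1.79 times the non-lesional level for complex I, 1.63 for II, 1.96 for III, 1.67 for IV and 1.80 for V. At day 7 the ratios were 1.77, 1.47, 1.69, 1.62 and 1.74. These shares depend on what else the cells express. Cytosolic ribosomal genes took 14.98%, 23.9% and 18.1% of fibroblast-like UMIs in the 3 libraries. With scaling by TMM or by the median of ratios, the day 7 count of members at least 2-fold higher was 4 in place of 23 and the median 0.38. That scaling moved the median of all genes by -0.12, left 68 members above 0 and put 1 at least 2-fold lower. At day 2 it left 19 members 2-fold higher, with 74 still above 0.

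Complex I takes electrons from NADH, and 10 of its 37 members were at least 2-fold higher at day 2 and 9 at day 7. Of all genes 11.1% and 7.92% were, or 25.6% and 17.6% at 50 CPM or more. The day 2 count of complex I thus lay near the share of all genes at that level. The counts of complexes II to V below are read against the same shares. Ndufab1, the acyl carrier protein of the mitochondrion and a complex I subunit (chr7:122085403-122101886), stood at 63.0 CPM in non-lesional skin, 190 at day 2 and 165 at day 7, ratios of 3.01 (interval 2.91 to 3.12) and 2.61 (2.52 to 2.71). Ndufb6, an accessory subunit of the membrane arm, stood at 54.8, 153 and 125 CPM. Ndufa3, another accessory subunit, was at 81.2, 183 and 218 CPM and had the highest log2 fold of the complex at day 7 (1.37). For all 3 genes both wound libraries lay above the non-lesional one, beyond counting error. Ndufa4, which carries a complex I name but is now known as a subunit of complex IV, was at 172, 452 and 430 CPM (ratios 2.63 and 2.50).

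Ndufs1, an iron-sulfur subunit in the catalytic core of complex I, was at 17.0 CPM in non-lesional skin, 37.1 at day 2 and 27.4 at day 7, ratios of 2.18 (2.04 to 2.34) and 1.61 (1.49 to 1.74). At this low level the pseudocount brings its day 2 log2 fold to 0.94, under 2-fold. Ndufv1, the core subunit that binds NADH, was at 40.7, 64.7 and 61.4 CPM (ratios 1.59 and 1.51). At the low end stood Ndufa1, an accessory subunit encoded on the X chromosome, at 146, 135 and 177 CPM, and Ndufa13, also known as GRIM-19, at 240, 227 and 319 CPM. For these the day 2 value lay slightly below non-lesional skin and the day 7 value above it. The lowest members at day 7 were Ndufa6 (108 to 125 CPM) and Ndufb10 (131 to 152 CPM), both accessory subunits. With TMM scaling the day 7 log2 folds of Ndufa6, Ndufb10 and Ndufa1 lay below 0, at -0.18, -0.17 and -0.11.

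Complex II oxidises succinate and also serves the citric acid cycle, and 0 of its 4 members reached 2-fold. Sdha, the flavoprotein that holds the succinate site (chr13:74322254-74350280), stood at 45.5, 92.2 and 63.6 CPM, a ratio of 2.02 at day 2 (1.94 to 2.11) that the pseudocount brings to 0.94 on the log2 scale. Sdhb, its iron-sulfur partner, stood at 51.7, 59.5 and 71.6 CPM. The catalytic pair thus differed in order: Sdha was highest at day 2 and Sdhb at day 7. The membrane anchors Sdhc (47.0, 77.3 and 74.4 CPM) and Sdhd (42.1, 74.2 and 64.7 CPM) lay highest at day 2.

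Complex III had the highest median log2 fold of the 5 complexes at both days (0.99 and 0.89), with 3 of 8 members at least 2-fold higher each time. Uqcrq, a small subunit beside cytochrome b (chr11:53427922-53430831), stood at 152 CPM in non-lesional skin, 563 at day 2 and 385 at day 7. Its day 2 ratio of 3.70 (3.62 to 3.78) was the highest of the 82 members. Uqcr11, a small subunit, whose promoter is shown above, stood at 109, 359 and 280 CPM, ratios of 3.29 and 2.56. The core proteins Uqcrc1 (38.5, 81.5 and 88.0 CPM) and Uqcrc2 (36.2, 81.7 and 66.0 CPM) had day 2 ratios of 2.12 and 2.26, and at day 7 Uqcrc1 kept a ratio of 2.29 and Uqcrc2 one of 1.82. Uqcrfs1, the Rieske iron-sulfur protein, was at 57.0, 95.1 and 74.4 CPM. Uqcrh, the hinge protein, differed least (507, 597 and 572 CPM, ratios 1.18 and 1.13). With TMM scaling the day 7 log2 fold of Uqcrh was -0.22 and that of Uqcrfs1 -0.01.

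Complex IV reduces oxygen, and its 16 members were the most divided: 7 were at least 2-fold higher at day 2 and the same number at day 7, while 5 lay below 0 at day 2 and 3 at day 7. With TMM scaling Cox6b2 (-0.13) and Cox7a1 (-0.09) also lay below 0 at day 7. Cox5a, a subunit on the matrix side (chr9:57521274-57532426), stood at 101 CPM in non-lesional skin, 339 at day 2 and 277 at day 7, ratios of 3.35 (3.26 to 3.44) and 2.73 (2.65 to 2.81). Cox5b, a zinc-binding subunit, stood at 155, 439 and 417 CPM, and Cox6b1, which faces the intermembrane space (chr7:30616861-30626151), at 161, 486 and 460 CPM. For all 3 both wound libraries lay above the non-lesional one, with ratios from 2.70 to 3.35. Cox6a1, Cox7a2, Cox7b and Cox7c, further small subunits, completed the 7.

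Cox4i1 was at 616, 817 and 818 CPM, Cox8a at 388, 569 and 631 CPM and Cox6c at 738, 653 and 753 CPM, with ratios from 0.885 to 1.63. Cox7a2l is a relative of the Cox7a subunits (chr17:83501918-83517330). It has been described as joining complexes III and IV into supercomplexes, and whether it does so in the mice used here was not examined. Cox7a2l went the other way, at 307 CPM in non-lesional skin, 176 at day 2 and 170 at day 7. These wound levels were 1.75-fold (1.71 to 1.78) and 1.81-fold (1.77 to 1.85) lower. Of its summed UMIs with Cox7a1 and Cox7a2, Cox7a2l gave 65.0%, 29.8% and 30.7%, and Cox7a2 34.6%, 69.4% and 69.0%. In clusters with at least 30 cells, Cox7a2l ranged from 231 to 408 CPM in non-lesional fibroblast-like clusters and from 152 to 222 CPM in those of the wound, and these ranges do not overlap.

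Complex V makes ATP, and 6 of its 17 members were at least 2-fold higher at day 2 and 4 at day 7. Atp5a1 and Atp5b, the alpha and beta subunits that form the catalytic ring, stood at 179, 447 and 325 CPM and at 236, 477 and 375 CPM. Both were highest at day 2. The genes Atp5g1, Atp5g2 and Atp5g3 encode the same ring-forming c subunit with different import sequences. They stood at 150, 327 and 307 CPM, at 243, 573 and 494 CPM, and at 105, 361 and 254 CPM. Atp5g3 (chr2:73908447-73911326) had the highest log2 fold of the complex at day 2 (1.74), and its part of the UMIs of the 3 genes was 20.96% in non-lesional skin, 28.6% at day 2 and 24.1% at day 7. Atp5k, the e subunit that helps ATP synthase form dimers (chr5:108433244-108434448), stood at 92.6, 273 and 304 CPM. Its day 7 log2 fold of 1.66 was the highest of all members at that time. Atp5d, the delta subunit of the central stalk, had the lowest log2 folds of the complex, -0.27 and 0.05 (241, 198 and 249 CPM), and with TMM scaling its day 7 value was -0.34. Atp5s, a coupling factor that later annotation no longer counts as a subunit, was low throughout (2.75 to 3.60 CPM).

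Between day 7 and day 2 in fibroblast-like cells, 0 of 81 members tested were 2-fold higher or lower, against 2.85% and 1.65% of all genes, and the summed ratio was 0.961. Among genes at 50 CPM or more the shares of all genes were 6.85% and 5.26%, with 0 of 73 members. The median was -0.06, with Uqcrq lowest (-0.54) and Cox6b2, the testis-type isoform, highest (0.59, from 1.67 to 5.07 CPM). The members' share was also taken per cell and by depth. The median share per cell, over cells with at least 1000 UMIs, was 1.09% in non-lesional skin, 1.98% at day 2 and 1.86% at day 7. The 10th to 90th percentiles ran from 0.782 to 1.51%, from 1.34 to 2.86% and from 0.929 to 2.55%, so the cells of the libraries overlap. Among cells with 1000 to 5000 UMIs the members took 1.12%, 2.53% and 1.44%, and among those with 5000 to 10000 UMIs 1.16%, 2.41% and 1.56%. From 10000 to 20000 UMIs they took 1.10%, 2.18% and 1.88%, and from 20000 to 40000 UMIs 0.994%, 1.95% and 1.82%. In each of these 4 bands both wound libraries lay above the non-lesional one, and the day 7 excess was smaller in the shallow cells. Dividing cells, with UMIs of at least 3 of 20 proliferation genes, were 67.3% of the class at day 2 and 36.5% at day 7. In non-lesional skin 99.9% were other cells. Median depth was 31115 UMIs in dividing and 16593.5 in other cells at day 2, and 36676.5 and 21840.5 at day 7. This split therefore also sorts cells by depth. The members stood at 1.98% in dividing and 1.92% in other cells at day 2, and at 2.02% and 1.75% at day 7. Without dividing cells 13 members were 2-fold higher at day 7, a count given without the share of all genes in those cells.

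The level varied among fibroblast-like clusters. In non-lesional skin it ran from 0.976% in the cluster led by Col1a2 and Col1a1 to 1.41% in the one led by Cilp and Coch. At day 2 the Saa3 Prg4 cluster stood at 2.20% and the Cxcl5 Ptx3 cluster at 1.69%. At day 7 the cluster led by Lrrc15 and Tnn stood at 2.04%, while that led by Col14a1 and Has1 stood at 1.32%, inside the non-lesional range. Proliferation genes summed to 177 CPM in the Col14a1 Has1 cluster and to 1417 CPM in the Saa3 Prg4 cluster. Ndufa4 followed the same split at day 7, with 494 CPM in the Lrrc15 Tnn cluster and 190 CPM in the Col14a1 Has1 cluster, against 145 to 214 CPM in non-lesional clusters. The Cilp Coch cluster was the only one with at least 50 cells of both non-lesional skin (666) and day 7 (174). Within it, 7 of 80 members passed 2-fold upward and 1 downward, against 6.42% and 5.29% of all genes. The summed ratio was 1.38 (1.37 to 1.40) and 69 members lay above 0.

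**Figure D2:**
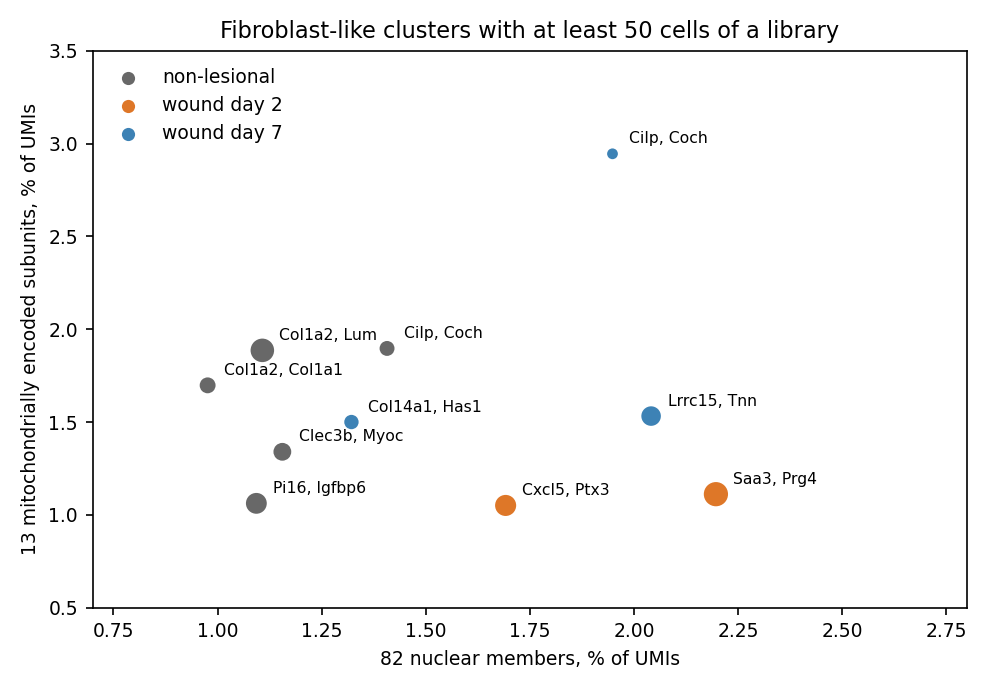
Share of UMIs from the 82 nuclear members (horizontal axis, %) against that from the 13 mitochondrially encoded subunits (vertical axis, %) in fibroblast-like clusters with at least 50 cells of a library. Each point is a cluster within 1 library, labelled by its leading genes, and its area grows with the number of cells; the day 2 clusters lie right of the non-lesional ones on the nuclear axis and at 1.05% to 1.11% on the mitochondrial axis.

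Summed over all fibroblast-like cells, the subunits encoded in mitochondrial DNA did not follow the nuclear ones. The 13 genes summed to 16109 CPM in non-lesional fibroblast-like cells, 10875 at day 2 and 15889 at day 7. At day 2, 0 of 13 were 2-fold higher and 3 lower (median -0.53), and at day 7 0 were either (median -0.02). Within like cells day 7 differed from this sum. In the Cilp Coch cluster they took 1.90% of UMIs in non-lesional skin and 2.945% at day 7. Among cells with 1000 to 5000 UMIs they took 2.39%, 1.77% and 4.51%, and from 20000 to 40000 UMIs 1.52%, 1.11% and 1.55%. In each band up to 40000 UMIs day 7 lay above non-lesional skin and day 2 below it. Cells of all libraries were kept only up to 10% mitochondrial UMIs, which caps these values. That filter removed 368 barcodes of non-lesional skin, 372 of day 2 and 1632 of day 7. With 20% allowed, the day 7 fibroblast-like cells numbered 2797 in place of 2296. The part of the filter in the mitochondrial values was not tested. The lists that follow are read against the share of all genes past 2-fold upward, 11.1% at day 2 and 7.92% at day 7, or 25.6% and 17.6% at 50 CPM or more. Of 77 mitochondrial ribosomal proteins, 39 were at least 2-fold higher at day 2 (median 1.01) and 16 at day 7 (0.79). Of 22 genes of protein import and the outer membrane, 13 and 3 were higher (1.05 and 0.77), and of 13 citric acid cycle enzymes 6 and 2 (0.82 and 0.75). Of 47 assembly factors, 10 and 6 were higher and 1 lower each time (0.58 and 0.51), and of 8 carriers and other chain genes such as Cycs 3 were higher each time (0.90 and 0.80).

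Other lists, read against the same shares, lay outside respiration. Of 16 glycolysis genes, 13 were 2-fold higher at day 2 (median 2.24) and 9 at day 7 (1.26, with 1 lower), and all 20 proliferation genes were higher at both days (3.40 and 3.04). Cytosolic ribosomal proteins had 16 of 80 and 5 of 79 higher (0.67 and 0.27). Of the 13 regulators of mitochondrial biogenesis, among them Ppargc1a, Nrf1, Gabpa and Tfam, 0 reached 2-fold in either direction at either day (0.18 and 0.00). Of the uncoupling proteins only Ucp2 had enough UMIs, and it was lower, at log2 folds of -2.81 and -2.02.

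A few complex IV genes are known as tissue-restricted isoforms. Cox4i2, the isoform known from lung and from vessel-associated cells as part of oxygen sensing (chr2:152754173-152765037), had its highest class level in pericyte or smooth muscle-like cells. Its level there was 140 CPM in the non-lesional library and 246 at day 7, a ratio of 1.77 (1.55 to 2.02), and gave 7.23% and 18.1% of the UMIs of Cox4i1 and Cox4i2 together. Of those cells 51.5% and 71.6% had a UMI of Cox4i2, or 16.8% and 23.2% after thinning to 1000 UMIs. Fibroblast-like cells had one in 2.45%, 5.04% and 2.53% of cells (0.477%, 0.499% and 0.266% thinned), and non-lesional keratinocyte-like cells in 0.263% (0.0661% thinned). Within the class it differed by cluster, at 205 CPM in the non-lesional cluster led by Myh11 and Sparcl1, 28.8 in that led by Myh11 and Des, and 262 in the day 7 cluster led by Rgs5 and Notch3. The 34 non-lesional endothelial-like cells stood at 91.5 CPM and the 116 of day 7 at 11.7. Among fibroblast-like clusters the Cilp Coch cluster was highest, at 42.7 non-lesional and 22.7 day 7 CPM.

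Cox6b2, known as the testis form of Cox6b1 (chr7:4751792-4753094), had 61.3 CPM in dendritic-like cells of the non-lesional library and 10.4 and 14.1 CPM at day 2 and day 7. Within the dendritic-like cluster present in all 3 libraries, led by Cd74 and H2-Aa, it was at 60.5, 15.8 and 17.7 CPM. Its highest levels lay in unnamed clusters, at 155 CPM in one of non-lesional skin led by Slc26a7 and Crabp1 and 151 CPM in one of day 7 led by Wif1 and Vcan. Cox8b, known from muscle and brown fat (chr7:140898945-140900446), was found almost only in non-lesional fibroblast-like cells, with 163 UMIs or 2.59 CPM. Most of these, 96 UMIs (9.34 CPM), lay in the cluster led by Col1a2 and Col1a1. At day 2 there were 0 UMIs in 4065 fibroblast-like cells, which allows up to 0.0738% of cells with a UMI (3 counts of the total), a limit on detection and not on cells that express the gene. Against the floor of 3 UMIs over the class, the day 2 level was at least 96.0-fold lower. At day 7 there were 5 UMIs, 34.3-fold lower (14.4 to 107). Cox7a1, the heart and muscle isoform, stood at 1.80, 4.50 and 1.89 CPM in fibroblast-like cells. Cox6a2, another muscle isoform, was at or under 0.106 CPM there.

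**Figure D3:**
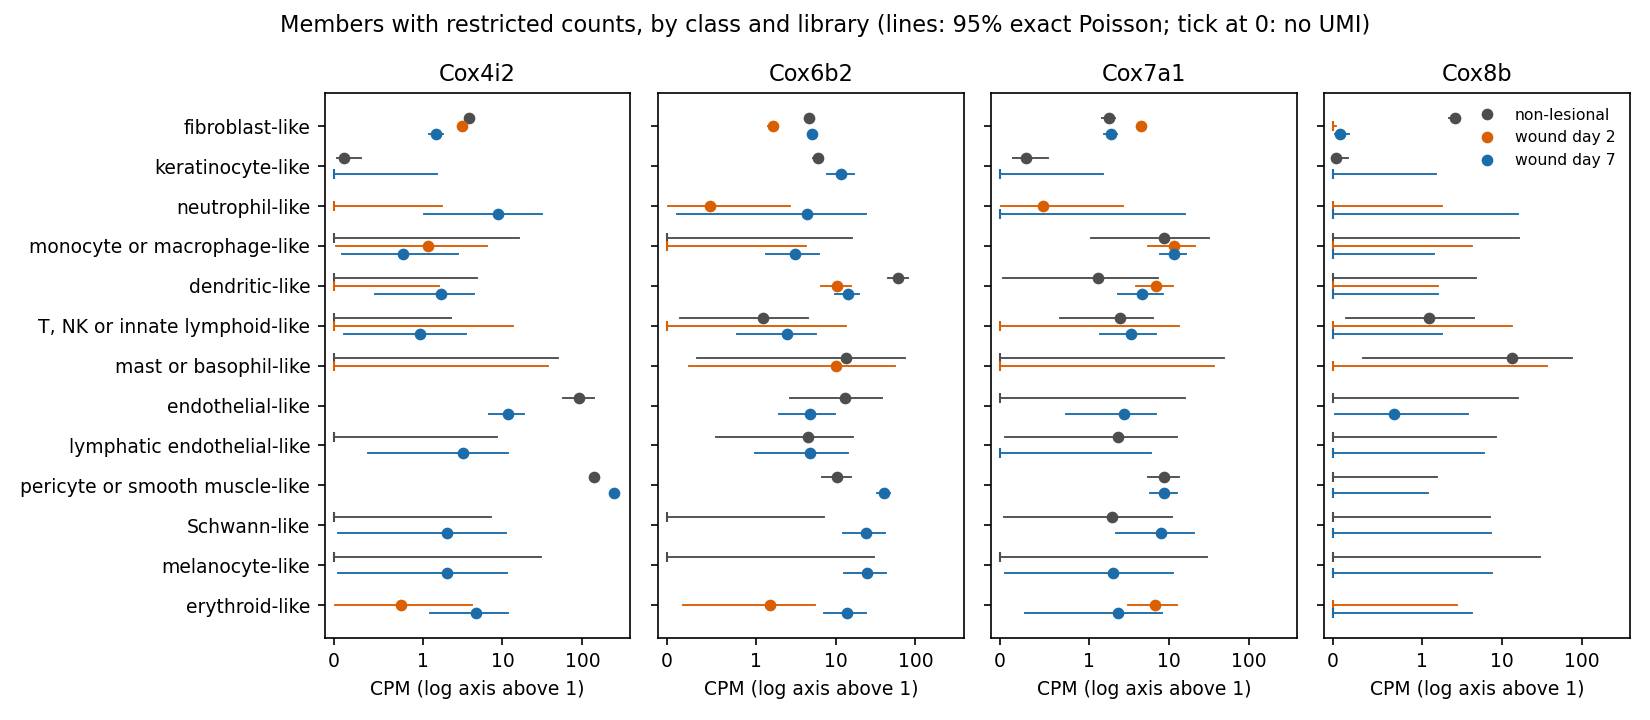
CPM of Cox4i2, Cox6b2, Cox7a1 and Cox8b (horizontal axis, log scale above 1) in each cell class with at least 30 cells, by library. Points are sums over the cells of a class, lines 95% exact Poisson intervals for counting error, and a tick at 0 marks no UMI; Cox4i2 is highest in pericyte or smooth muscle-like cells (140 and 246 CPM) and Cox8b in non-lesional fibroblast-like cells is at 2.59 CPM.

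Across classes, the summed level of the members in non-lesional skin, in classes with at least 30 cells, ran from 1.11% in fibroblast-like to 3.33% in pericyte or smooth muscle-like cells. Keratinocyte-like cells stood at 1.76%, dendritic-like at 1.72%, Schwann-like at 1.61%, monocyte or macrophage-like at 1.38% and lymphoid-like cells (T, NK or innate lymphoid) at 1.28%. Fibroblast-like cells were the lowest of these, with endothelial-like cells next (1.19%, 34 cells). At day 7 the class sums of fibroblast-like and endothelial-like cells, both at 1.89%, and monocyte or macrophage-like cells (1.96%) differed by less than 0.1 percentage points. The median shares per cell, over cells with at least 1000 UMIs, were 1.86%, 1.88% and 1.33%. The 283 monocyte or macrophage-like cells of the cluster led by Pf4 and Lyz2 stood at 1.52%. Melanocyte-like cells stood highest there, at 3.45% (44 cells, against 2.11% in 40 non-lesional cells). These cells mostly filled different clusters, 1 with 35 non-lesional and 8 day 7 cells and 1 with 5 and 36. Their median depths were 1727 UMIs in non-lesional skin and 10525.5 at day 7. Neutrophil-like cells were lowest, at 0.396% at day 2 and 0.499% at day 7. In them Col1a1, a fibroblast collagen, stood at 17.0% and 17.6% of its fibroblast-like level. At those shares, fibroblast RNA would equal 84.8% and 66.8% of the members' level in these cells, and its part in the values was not tested.

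**Figure D4:**
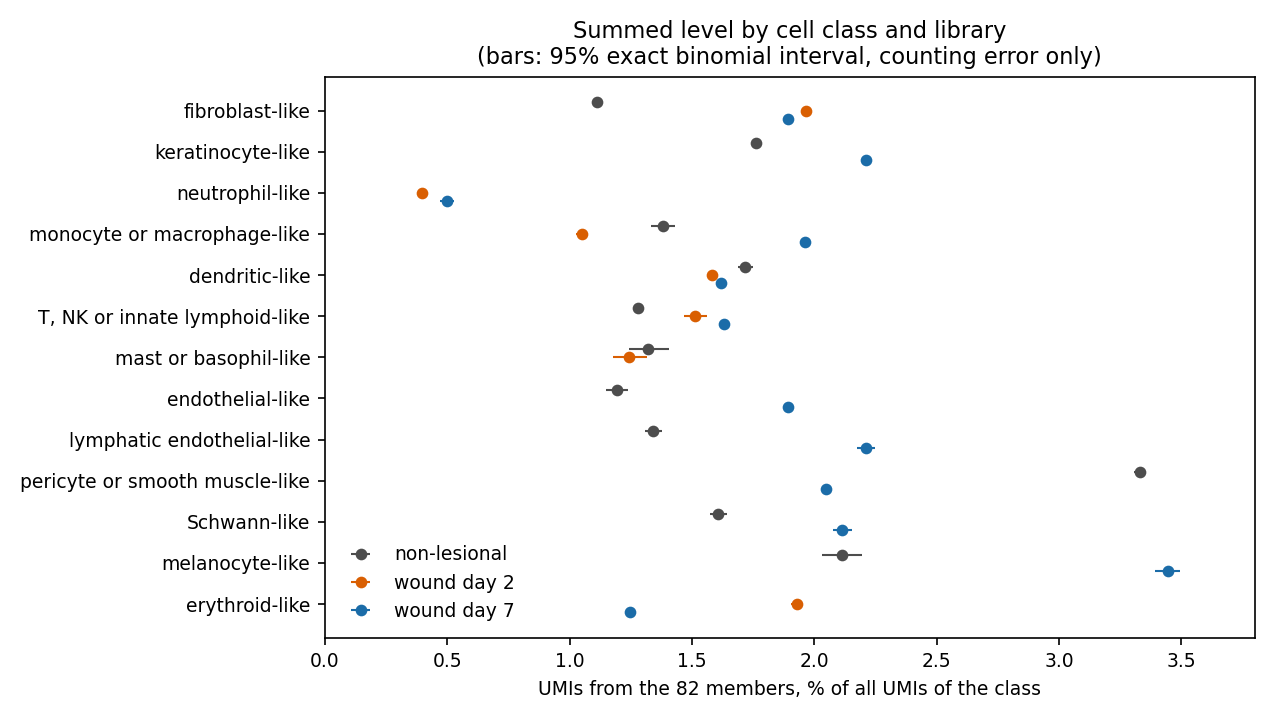
Share of a class's UMIs that came from the 82 members (horizontal axis, %) in each cell class with at least 30 cells, by library. Points are sums over all cells of the class and bars 95% exact binomial intervals, which cover counting error only and are often narrower than the point; fibroblast-like cells move from 1.11% to 1.97% and 1.89%, pericyte or smooth muscle-like cells from 3.33% to 2.05%.

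Monocyte or macrophage-like cells, the phagocytes that clear and remodel the wound, stood at 1.38% in non-lesional skin (49 cells, under the minimum of 50 used for other classes), 1.05% at day 2 (362 cells) and 1.96% at day 7 (314 cells). Of the 49 non-lesional cells, 45 lay in a cluster led by Retnla and C1qa that held 0 wound cells. The cluster led by Pf4 and Lyz2 held 2 of them, all 362 day 2 cells and 283 of the day 7 cells. Comparisons with non-lesional skin are thus mostly between different clusters of this class. At day 2, 13 of 77 members were at least 2-fold lower (16.9%) and 0 higher, against 20.8% and 16.4% of all genes. With genes at 50 CPM or more it was 12 of 68 lower and 0 higher, against 27.1% and 16.8%. The share of lower members was thus below that of all genes. The fibroblast collagen Col3a1 stood at 1.24% of its fibroblast-like level in the non-lesional cells and at 13.8% at day 2, where fibroblast RNA at that share would equal 25.8% of the members' level, and its part in the result was not tested. The lowest member was Ndufs8, an iron-sulfur subunit of complex I, at 123 against 22.1 CPM (28 and 19 UMIs, 5.58-fold lower, interval 3.01 to 10.6). Of the 13, 9 carry complex I names: Ndufs8, Ndufa13, Ndufa4 (by function a complex IV subunit), Ndufb10, Ndufa8, Ndufb9, Ndufb11, Ndufa12 and Ndufb4, at log2 folds from -2.24 to -1.05. The others were Sdhc (-1.31) and Sdhd (-1.04) of complex II, Cox5a (-1.05) of complex IV, and Atp5sl (-1.70). Atp5sl is grouped with complex V by its prefix alone, is named Dmac2 in GENCODE, and is not known as a subunit of ATP synthase. Uqcrfs1 had the highest log2 fold (0.67), and its ratio of 1.64 (0.927 to 3.12) cannot be told from 1 at this depth. At day 7, 11 members were at least 2-fold higher and 2, Ndufs8 and Atp5sl, lower, against 17.8% and 13.9% of all genes. At 50 CPM or more the counts were 11 and 1 of 73, against 15.8% and 21.1%. Uqcrc2 was highest, from 22.0 to 93.6 CPM, with 5 UMIs in non-lesional skin (ratio 4.26, 1.80 to 13.2).

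Between day 2 and day 7 these cells differed more clearly. Of 77 members 38 were at least 2-fold higher at day 7 (49.4%) and 0 lower, against 9.03% and 3.87% of all genes, and the summed ratio was 1.87 (1.83 to 1.91). At 50 CPM or more it was 38 of 73, against 10.1% higher and 5.83% lower. Complex II, with 4 of 4, had the highest median (1.19), then complex I with 22 of 37 (1.11). Atp5g1 of the c ring was highest, from 87.1 to 289 CPM (ratio 3.32, 2.62 to 4.27), and Cox7a1 lowest, at 11.6 and 11.7 CPM. A small day 7 cluster of 31 cells led by Acp5, an osteoclast-type phosphatase, bears on these counts. In the cluster led by Pf4 and Lyz2 alone, which held all 362 day 2 and 283 of the day 7 cells, 6 of 77 members were at least 2-fold higher (5.56% of all genes). Its summed ratio was 1.45 (1.42 to 1.49) and 75 members lay above 0. Without the Acp5 cluster, 1 member in place of 11 was 2-fold higher at day 7 against non-lesional skin. The share of all genes without that cluster is not given here. Median depth in the class was 4747, 1851 and 5737.5 UMIs in the 3 libraries.

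Pericyte or smooth muscle-like cells, which wrap small vessels or line hair muscle and arteries, had 3.33% in the non-lesional library (299 cells) and 2.05% at day 7 (190 cells). At day 7, 17 of 80 members were at least 2-fold lower (21.3%) and 1, Cox6b2, higher (10.5 to 40.2 CPM), against 8.44% and 14.3% of all genes. Restricted to 50 CPM or more, 17 of 76 were lower and 0 higher, against 13.9% and 17.1%. Ndufa4 was lowest, at 634 and 130 CPM (4.89-fold lower, 4.37 to 5.47). Atp5b stood at 1096 and 494 CPM and Cox6c at 1764 and 730 CPM. Besides these 3, the lower members were Ndufa13, Ndufa11, Ndufv3, Ndufs8, Ndufb9, Ndufv1, Ndufb7, Ndufb10, Ndufs7 and Ndufb8 of complex I, Sdhb and Sdhc of complex II, Cox8a and Atp5d, at log2 folds from -1.53 (Ndufa13) to -1.02 (Ndufb8). The 13 mitochondrially encoded subunits were lower as well, at 45999 and 23128 CPM. The libraries filled different clusters: the Myh11 Sparcl1 (222 cells, 2.42%) and Myh11 Des (65 cells, 4.52%) clusters in non-lesional skin and the Rgs5 Notch3 cluster (165 cells, 2.01%) at day 7. Ndufa4 stood at 207, 1179 and 108 CPM in them. Without the Myh11 Des cluster 1 member was 2-fold lower, against 8.66% of all genes, and the summed ratio was 0.848 (0.837 to 0.860) in place of 0.615. Col1a1 stood at 17.4% and the matrix gene Sparc at 44.5% of the fibroblast-like level in the day 7 cells, and their part in the result was not tested.

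In the other classes the share of members past 2-fold lay near or below that of all genes, except for higher members of neutrophil-like cells at 50 CPM or more. In lymphoid-like cells 7 of 76 members were at least 2-fold higher at day 2 and 1 lower (16.0% and 10.2% of all genes), and 11 of 78 higher at day 7 with 0 lower (14.1% and 3.87%). At 50 CPM or more the day 2 counts were 7 and 1 of 64 (17.8% and 8.95%) and those of day 7 were 10 and 0 of 68 (12.5% and 6.71%). Ndufb3, an accessory subunit, was highest at day 2, from 50.6 to 184 CPM (50 UMIs, ratio 3.62, 2.50 to 5.21), and Ndufs6, which supports the iron-sulfur subunits, at day 7, from 33.4 to 105 CPM. Between day 2 and day 7, 1 of 76 was higher, Ndufs8 (18.4 to 46.8 CPM, 5 UMIs at day 2), and 0 lower, against 9.61% and 3.10%. Restricted to 50 CPM or more, it was 0 of 69, against 3.86% and 3.35%. In dendritic-like cells 2 members were higher and 3 lower at day 2 (13.6% and 6.34% of all genes), and 1 and 1 at day 7 (10.2% and 4.29%). At 50 CPM or more the counts were 1 and 3 of 74 (17.7% and 7.37%) at day 2 and 1 and 1 of 73 (12.6% and 5.66%) at day 7. The lower members were Cox6b2 (-2.11), Ndufb8 (-1.02, 227 to 109 CPM) and Atp5d (-1.01) at day 2 and Cox6b2 (-1.79) at day 7. Sdha was highest both times, at 27.4 CPM in non-lesional skin, 88.9 at day 2 and 73.6 at day 7 (21 non-lesional UMIs, ratios 3.25 and 2.69). The non-lesional dendritic-like cells lay almost all in the Cd74 H2-Aa cluster (116 of 120), and those of the wound also in a Ccr7 cluster (309 and 172 cells). Between the wound days 0 of 79 differed 2-fold (2.29% and 1.46% of all genes, or 1.55% and 2.10% at 50 CPM or more, with 0 of 71).

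Atp5d was lower in several classes. It stood at 477, 143 and 244 CPM in lymphoid-like cells, 482, 237 and 279 CPM in dendritic-like cells, and 626 and 298 CPM in pericyte or smooth muscle-like cells of non-lesional skin and day 7. The lymphoid-like ratio at day 2, 3.33-fold lower (2.41 to 4.72), rests on 39 UMIs. In fibroblast-like cells Atp5d was within 1.3 times of the non-lesional level at both days.

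In keratinocyte-like cells, of which 1521 were non-lesional and 90 from day 7, 1 of 79 members was 2-fold higher and 0 lower (4.17% of all genes in each direction), and at 50 CPM or more 1 of 73 (6.55% higher and 10.3% lower). It was Atp5k, from 174 to 357 CPM (ratio 2.06, 1.92 to 2.21), which had the highest day 7 fold in fibroblast-like cells too. Sdhb was lowest, from 75.2 to 44.1 CPM. In neutrophil-like cells 4 of 74 were higher and 3 lower at day 7 than at day 2 (7.23% and 11.2%), and at 50 CPM or more 4 of 28 and 0 (6.64% and 6.77%), with Cox7b highest (27.9 to 69.4 CPM, 58 and 16 UMIs). Ndufa11, lowest, had 2 UMIs at day 7 (ratio 0.369, 0.0434 to 1.40). The other lower members there, Ndufa8 and Ndufb3, had 1 and 3 UMIs at day 7, and their intervals (0.00738 to 1.81 and 0.0825 to 1.25) also hold 1. In erythroid-like cells 5 of 78 were lower and 1 higher at day 7 (19.1% and 3.67%), and at 50 CPM or more 5 and 0 of 73 (28.3% and 5.30%), Atp5g3 lowest (372 to 154 CPM). The other 4 lower members were Atp5a1, Uqcrq, Sdha and Ndufc2, at log2 folds from -1.21 (Atp5a1) to -1.07 (Ndufc2). There Col1a1 stood at 79.6% and 60.1% of its fibroblast-like level, and the part of that RNA was not tested.

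**Figure D5:**
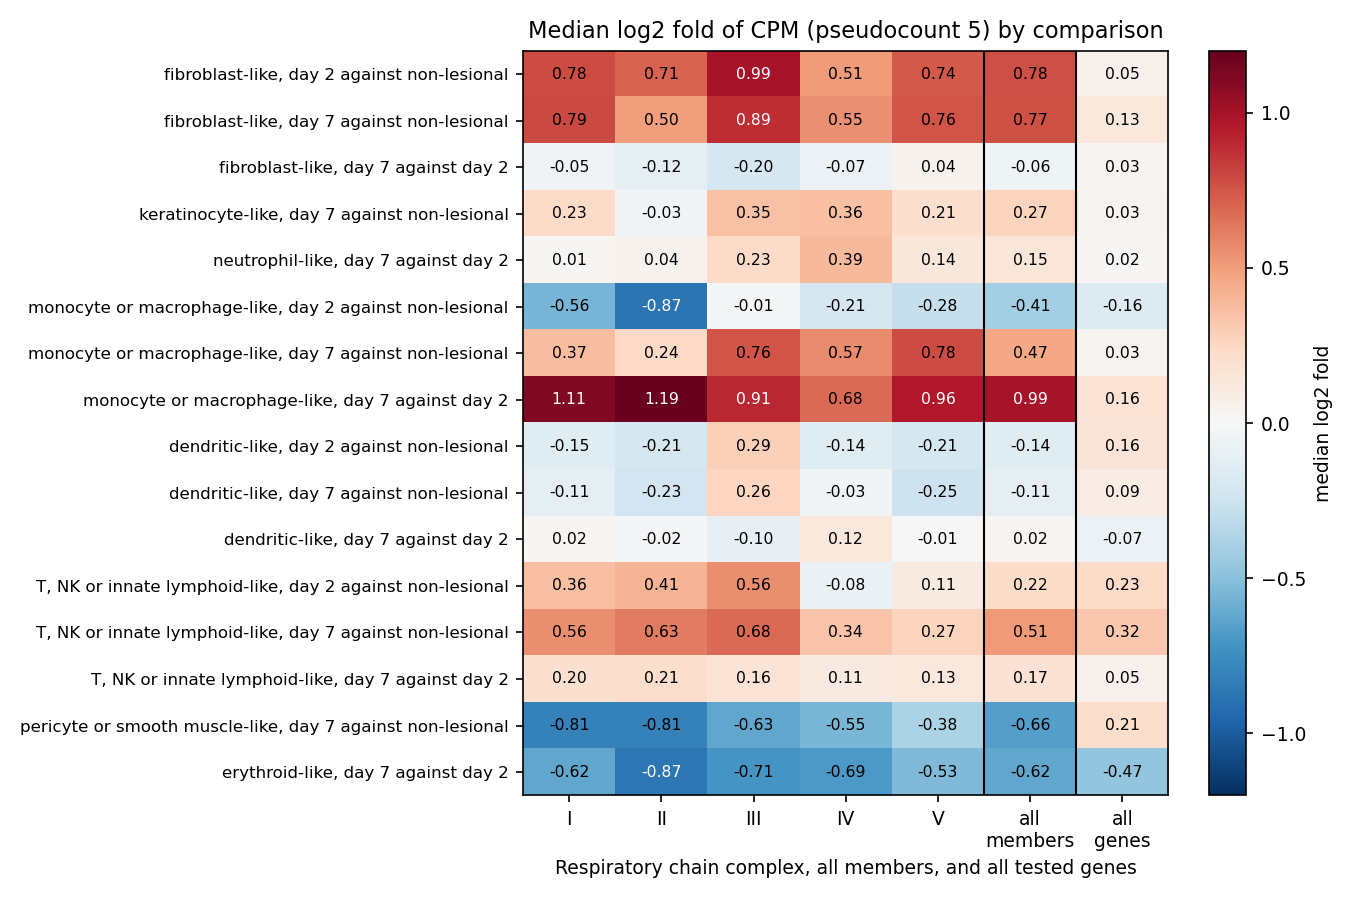
Median log2 fold of CPM (pseudocount 5, colour and number) by comparison (rows) for the members of each complex, for all members and for all tested genes (columns). Fibroblast-like cells of both wound days against non-lesional skin show medians above 0 in every complex. So do monocyte or macrophage-like and lymphoid-like cells of day 7 and neutrophil-like cells. Pericyte or smooth muscle-like cells show medians below 0, from -0.38 in complex V to -0.81 in complex I and in complex II. Erythroid-like cells also lie below 0 in every complex, from -0.53 in complex V to -0.87 in complex II. At day 2 against non-lesional skin the monocyte or macrophage-like class does too, from -0.01 in complex III to -0.87 in complex II.

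Some members share sequence with other genes, and how their reads were assigned was not examined. Over the last 300 bases, where these libraries are read, 26 members have a stretch of at least 90 bases at 95% identity in another annotated gene. For 5 members, Atp5h, Atp5l, Cox5b, Ndufb2 and Ndufb8, such a copy is among the counted genes. Another gene overlaps 12 members on their own strand and 29 on the other. Of the members printed with a window before a start site, Cox5a, Cox6a1 and Uqcr11 each have 1 such copy outside the counted genes. Cox7a2l has none. Of the others named above with positions, Ndufab1 and Atp5k have such copies, and Sdha, Uqcrq, Cox6b1, Atp5g3, Cox4i2, Cox6b2 and Cox8b have none.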

How the data were processed

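Single-cell RNA sequencing was done with the Chromium 3' kit, labelled v2, on a NovaSeq6000, per the labels' protocols. The authors deposited raw UMI counts per gene and barcode on mm10. The submitters' processing notes name Cell Ranger 3.0.2 and Seurat 3.0, while the deposited file headers name Cell Ranger 5.0.0. No aligner settings are given in the sources used here.

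From these counts, barcodes with at least 200 genes and at most 10% mitochondrial UMIs were kept, and Scrublet's top 0.8% per 1000 barcodes were removed as doublets. Its own threshold marked 373, 1 and 0 barcodes, so it had not worked in the wound libraries. After scaling to 10000 UMIs per cell and a log transform, 30 components of the 2000 most variable genes and 20 neighbours entered Leiden clustering, which at resolution 1 gave 38 clusters of at least 5 cells. Names came from 16 marker lists (score at least 0.4, at least 3 markers in 20% of cells). This scoring rule was chosen after the clusters were seen. Clusters that missed it stayed unnamed.

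UMIs were summed per class and library and divided by the class total (CPM). Folds on the log2 scale carry 5 added CPM as pseudocount and cover genes with at least 10 UMIs in the pair. Intervals are 95% and exact (binomial for shares and ratios, Poisson for levels). PCR and cell sampling lie outside them. Classes needed 50 cells in both libraries, except the 49 non-lesional monocyte or macrophage-like cells. Since a group is 1 library, differences have no test. The text names, in fibroblast-like cells, the 3 largest and 2 smallest folds of each complex, isoform pairs, members at least 2-fold lower in any class, defining subunits, and elsewhere the highest and lowest member. The values of 1 gene are not reported here. The members and lists were chosen with earlier results of these data known. Other scalings, filters, pseudocounts, resolutions, doublet handling and clusters were tried. Tools were Python 3.11.15, scanpy 1.11.5, scipy 1.17.1, leidenalg 0.10.2, edgeR 4.0.16 (TMM factors only) and BLAST 2.17.0 (copies), with gene positions from GENCODE M21.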

Additional observations from a re-analysis of the deposited data

Results flagged for a closer look

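For 10 pairs of values a member was at least 2-fold higher in one cell class and at least 2-fold lower in another under the same contrast. These differences between classes were not tested, since each group has 1 library. Some rest on single clusters. Without the Myh11 Des cluster, 1 member in place of 17 was 2-fold lower in pericyte or smooth muscle-like cells. The day 7 monocyte or macrophage-like cells include the Acp5 cluster. In the Pf4 Lyz2 cluster alone, 6 members in place of 38 were 2-fold higher at day 7 than at day 2. In erythroid-like cells Col1a1 stood at 79.6% (day 2) and 60.1% (day 7) of its fibroblast-like level. Values are log2 folds. At day 2 against non-lesional skin, Ndufa4 stood at 1.37 in fibroblast-like and -1.72 in monocyte or macrophage-like cells. Cox5a stood at 1.70 and -1.05 in the same classes. At day 7 against non-lesional skin, Ndufa4 stood at 1.30 in fibroblast-like and -2.25 in pericyte or smooth muscle-like cells. Against that class, Ndufb7 stood at 1.09 in lymphoid-like cells (T, NK or innate lymphoid) and -1.15 in pericyte or smooth muscle-like cells, and Sdhc at 1.13 and -1.03. Atp5b stood at 1.25 in monocyte or macrophage-like and -1.14 in pericyte or smooth muscle-like cells. Cox6b2 stood at 1.54 in pericyte or smooth muscle-like and -1.79 in dendritic-like cells. At day 7 against day 2, Ndufa8 stood at 1.41 in monocyte or macrophage-like and -1.06 in neutrophil-like cells, where it rests on 1 UMI at day 7 and 30 at day 2 and the interval of the ratio (0.00738 to 1.81) holds 1. Ndufc2 stood at 1.35 and Sdha at 1.21 in monocyte or macrophage-like cells, against -1.07 and -1.16 in erythroid-like cells.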

How the results depend on the processing

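No paired analysis was possible because each group has 1 library. Of 120 values of the main results under alternatives, 87 moved by less than their counting error or stayed within 1.5 times, 33 moved and 0 reversed. Of 516 values of single members 330 moved, and none that lay past 2-fold changed sign. Members under 2-fold did: with TMM or the median of ratios 14 of the 82 lay below 0 at day 7 in fibroblast-like cells in place of 3. At day 2 Ndufa1, Ndufa13 and Cox4i2 went from -0.11, -0.08 and -0.11 to 0.10, 0.06 and 0.52 without dividing cells. Where values moved, the cause was not tested. In fibroblast-like cells the day 2 median of 0.78 was 0.86 with a pseudocount of 1, 0.60 with TMM, 0.59 with the median of ratios, 0.94 without cytosolic ribosomal UMIs, 0.90 with a class given per cell (489 day 2 cells), 0.98 with doublets kept (2511 day 2 cells) and 0.86 when thinned to 1000 UMIs. The count of 26 members 2-fold higher was 40 without ribosomal UMIs and 40 with doublets kept. The day 7 median of 0.77 was 0.38 with TMM and 0.38 with the median of ratios, 0.82 without ribosomal UMIs, 0.64 when thinned, 0.64 without dividing cells and 0.47 in the Cilp Coch cluster. The count of 23 was 4, 4, 13 and 7 with TMM, the median of ratios, without dividing cells and in that cluster. In monocyte or macrophage-like cells at day 2 the count of 0 members 2-fold higher was 1 with either scaling, 2 with a class per cell and 3 when thinned. At day 7 the count of 11 was 27 with TMM, 23 with the median of ratios, 1 at resolution 2, 1 with 20% mitochondrial UMIs allowed, 7 with doublets kept and 1 without the Acp5 cluster. At day 7 against day 2 the median of 0.99 was 0.64 and the count of 38 was 6 in the Pf4 Lyz2 cluster alone. In pericyte or smooth muscle-like cells the median of -0.66 was -0.19 and the count of 17 lower members was 1 without the Myh11 Des cluster. The alternatives that keep or leave out a cluster were chosen after seeing the data. The 49 non-lesional monocyte or macrophage-like cells limit every comparison with them.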
